A study of Mus musculus with 3 samples.

Results

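The genes described here encode the subunits of the receptors for glutamate and GABA, the main excitatory and inhibitory transmitters of the brain. They were taken by symbol from a table of normalized read counts: every AMPA, kainate, NMDA and delta receptor subunit, every metabotropic glutamate receptor and every GABA-A and GABA-B receptor subunit that has a row. The rule found 42 of the 19471 genes, 25 for glutamate and 17 for GABA. Grm6, Gabra6, Gabrp and Gabrr3 have no row under these symbols and were not analysed here. All 3 libraries form a single group of poly(A) RNA from wild-type mouse cortical astrocytes, taken from pups of postnatal day 1 and cultured for 7 days. Their sex is not stated, and no other genotype, treatment or age was compared. Replicates 1, 2 and 3 came from pups 5, 6 and 8, so animal, dish and library preparation cannot be told apart in a difference between them.

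Ionotropic receptors are channels that open when the transmitter binds. AMPA and kainate receptors are tetramers that carry fast excitation, NMDA receptors need the GluN1 subunit and a co-agonist to conduct calcium, and GABA-A receptors are chloride channels built mostly from alpha, beta and gamma subunits. Metabotropic glutamate receptors and the GABA-B receptor act through G proteins, the GABA-B receptor as an obligate pair of GABBR1 and GABBR2. Astrocytes are known to sense both transmitters at synapses, and mGluR5, mGluR3, AMPA receptors and GABA-A receptors are the types best known from them.

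The libraries held 14380993, 25128038 and 9858626 reads, in which 1 read is worth a normalized count of 0.813, 0.472 and 1.196, and a count of 0 reads allows up to 2.44, 1.42 and 3.59 (3 reads, counting error only). The cell identity was checked first. All 9 astrocyte markers averaged at least 10, with Gfap, Slc1a3 and Aqp4 the highest, and their summed level was 88464 to 109884. The 9 microglial markers were also all present, with a summed level of 18680 to 27340, as were all 5 ependymal markers (9919 to 13695), and 4 of 6 neural progenitor markers had a mean of 10 or more (36589 to 39060). Of the oligodendrocyte precursor list 7 of 9 did (14619 to 18384), of the oligodendrocyte list 3 of 6 (5142 to 5945), of the endothelial and mural list 3 of 6 (1588 to 1692) and of the fibroblast and meningeal list 4 of 5 (1686 to 2091). Of 12 pan-neuronal markers 9 did, with a summed level of 3584 to 3970 that was mostly Map2. Stmn2 averaged 669, Syt1 167 and Tubb3 157, the neuronal nuclear marker Rbfox3 averaged 7.65, and the vesicular glutamate transporter gene Slc17a7 had reads in 1 library only. Among 8 excitatory neuron markers 2 had a mean of 10 or more (759 to 903), mostly Camk2a at a mean of 776, and among 12 inhibitory neuron markers 6 did (241 to 280). In bulk RNA a transcript in few cells and a transcript at a low level in many cells cannot be told apart, and how much of any receptor transcript came from the other cell types was not tested.

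Sequences of the AMPA genes are shown because AMPA receptors lead the levels below and because the calcium permeability of the receptor is set at a single codon of them. This Q/R site codes for a glutamine in the pore of all 4 subunits. In Gria2 the glutamine codon is recoded to arginine in the RNA by the enzyme that Adarb1 encodes, which makes receptors that contain GluA2 nearly impermeable to calcium. The windows below are 33 bases of the coding strand of GENCODE vM21 transcripts on GRCm38, written 5′ to 3′, with the Q/R codon in capitals. The codon lies at chr11:57243094-57243096 (plus strand) in Gria1, chr3:80706911-80706913 (minus strand) in Gria2, chrX:41610265-41610267 (plus strand) in Gria3 and chr9:4464137-4464139 (minus strand) in Gria4, in coding exon sequence each time.
Gria1: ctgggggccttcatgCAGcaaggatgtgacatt
Gria2: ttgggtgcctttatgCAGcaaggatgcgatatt
Gria3: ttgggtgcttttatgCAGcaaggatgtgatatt
Gria4: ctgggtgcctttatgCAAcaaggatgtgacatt
The windows of Gria3 and Gria2 were identical at 31 of 33 bases, and those of Gria2 and Gria1 at 28 of 33. The codons are numbered 600, 607, 612 and 608 in Gria1, Gria2, Gria3 and Gria4, counted from the first codon of each transcript. These are genomic letters, and the deposited counts do not measure how much of the RNA was edited.

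Promoters are shown for 4 GABA receptor genes: Gabbr2 and Gabbr1, whose products work only as a pair but whose transcripts lay far apart here, and Gabra4 and Gabrb1, neighbours on chromosome 5 that overlap at their 5′ ends and were both among the abundant subunits. Each is 250 bases before to 50 bases after the RefSeq start site on GRCm38.p6, 5′ to 3′ on the strand of the gene, with every GC box (GGGCGG on either strand, the element bound by Sp factors) in capitals. The windows are chr4:46991665-46991964 (minus) for Gabbr2, chr17:37045716-37046015 (plus) for Gabbr1, chr5:71658259-71658558 (minus) for Gabra4 and chr5:71657671-71657970 (plus) for Gabrb1.
Gabbr2: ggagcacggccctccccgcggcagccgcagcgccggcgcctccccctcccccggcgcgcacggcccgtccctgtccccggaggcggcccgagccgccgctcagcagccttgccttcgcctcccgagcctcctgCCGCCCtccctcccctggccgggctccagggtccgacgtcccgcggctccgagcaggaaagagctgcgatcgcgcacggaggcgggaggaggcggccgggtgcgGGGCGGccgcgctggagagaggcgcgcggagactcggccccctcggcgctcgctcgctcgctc
Gabbr1: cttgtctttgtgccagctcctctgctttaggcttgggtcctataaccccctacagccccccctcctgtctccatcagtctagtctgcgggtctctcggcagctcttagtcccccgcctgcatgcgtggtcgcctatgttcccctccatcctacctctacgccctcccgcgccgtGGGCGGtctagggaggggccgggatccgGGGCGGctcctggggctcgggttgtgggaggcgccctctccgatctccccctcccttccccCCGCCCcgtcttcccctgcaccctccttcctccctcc
Gabra4: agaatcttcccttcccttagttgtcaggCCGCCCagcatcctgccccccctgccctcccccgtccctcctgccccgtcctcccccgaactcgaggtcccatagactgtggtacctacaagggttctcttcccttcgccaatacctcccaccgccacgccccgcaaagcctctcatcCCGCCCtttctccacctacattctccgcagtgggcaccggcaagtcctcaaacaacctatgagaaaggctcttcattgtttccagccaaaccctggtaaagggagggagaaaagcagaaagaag
Gabrb1: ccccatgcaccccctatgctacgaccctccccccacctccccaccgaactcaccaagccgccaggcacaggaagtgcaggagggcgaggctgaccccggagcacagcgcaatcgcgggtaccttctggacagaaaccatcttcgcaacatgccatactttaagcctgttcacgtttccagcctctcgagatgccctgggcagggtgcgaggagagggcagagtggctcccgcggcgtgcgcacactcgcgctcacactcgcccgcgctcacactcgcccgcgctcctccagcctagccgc
The Gabbr2 window held 46 CpG dinucleotides and 2 GC boxes, and the Gabbr1 window 18 and 3. The Gabra4 window held 12 CpGs and 2 GC boxes, and the Gabrb1 window 25 CpGs and no GC box.

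Of the 42 genes, 24 averaged at least 10 normalized counts, a level that 71.6% of all genes in the table reached. A mean of 100 or more was reached by 11 of the 42, and a mean of 1 or more by 41. The 18 genes under 10 had 4 to 45 reads in all 3 libraries together, and each of them had reads in at least 1 library. Just above the limit lay Grm5 (12.6) and Grin2d (15.5), and a little below it, among others, Gabbr2 (7.94) and Grin2c (7.55). The summed level of the 42 was 7530, 7681 and 8037 in replicates 1, 2 and 3, or 0.0653% of all reads. The plot of all members by class shows that subunits of a single class lay far apart in level, most of all in the GABA-A class.

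Levels of different genes were compared per kilobase of exon, since a longer transcript gives more reads. Summed per class, this level was 387 ± 43.3 for AMPA, 278 ± 37.0 for kainate, 251 ± 19.6 for GABA-A and 91.1 ± 5.45 for GABA-B receptors (SD, n = 3). It was 18.5 ± 1.46 for delta, 18.3 ± 0.706 for NMDA and 8.996 ± 0.707 for metabotropic glutamate receptors. The last 3 classes lay below the first 4 in every library.

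To place each gene on a common scale, its log2 level per kilobase was compared with the median gene of the same library by limma, over 13902 genes. Of the 24 members tested, 5 were above the median gene and 18 below it, while 45.7% of all genes were called above and 45.1% below. The same shares are the background for the lists of related genes below. The median of the members was -2.95 on the log2 scale, and that of all genes is 0 by construction. Among those above the median gene were Gria1 (1.83 ± 0.087 SE), Grik5 (1.71 ± 0.091), Gria3 (0.39 ± 0.085) and Gabbr1 (0.33 ± 0.082), and Gabrb1 was not called (-0.16 ± 0.080, adjusted p = 0.0847). All 4 tested NMDA genes and both tested metabotropic genes were below it.

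All 4 AMPA receptor genes were present, and Gria1 led them. Gria1 (ENSMUSG00000020524, GluA1) had normalized counts of 1526, 1345 and 1766 in replicates 1, 2 and 3. Gria3 (GluA3) had 815, 1004 and 972. Gria2 (GluA2, the subunit that is edited) had 373, 412 and 523. Replicate 3 was the highest library for Gria1 and Gria2, and the ranges of Gria1, Gria3 and Gria2 did not overlap. Gria4 (GluA4) had 48.0, 42.9 and 77.7, again highest in replicate 3. Per kilobase, Gria1 took 66.0 ± 3.41% of the class, Gria3 24.5 ± 3.41%, Gria2 7.21 ± 0.606% and Gria4 2.27 ± 0.489% (SD, n = 3), in this order in each library.

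Gria2 was lower than Gria1 within each of the 3 libraries, by 9.15-fold per kilobase. On the log2 scale the difference was -3.19 ± 0.171 (SE; limma adjusted p = 8.64e-77). By the same test 91% of 13901 genes differed from Gria1 in either direction, so a call against Gria1 is common. The small p rests on a variance estimate that draws on all genes. With the variance of this difference alone the adjusted p was 0.00704. Gria2 remained the lower of the pair without division by length, where Gria1 took 52.0% of the class. The log2 difference was then -1.83, and with the longest transcript -2.73, so the fold depends on the exon lengths. The genes of the RNA editing enzyme family differed in level. Relative to the median gene, Adar (ADAR1) stood at 0.23 on the log2 scale per kilobase. Adarb1 (ADAR2, the Q/R editor of Gria2) stood at -2.85, with 149, 95.8 and 96.9 normalized counts. Adarb2, a family member without known editing activity, stood at -6.20.

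**Figure D1:**
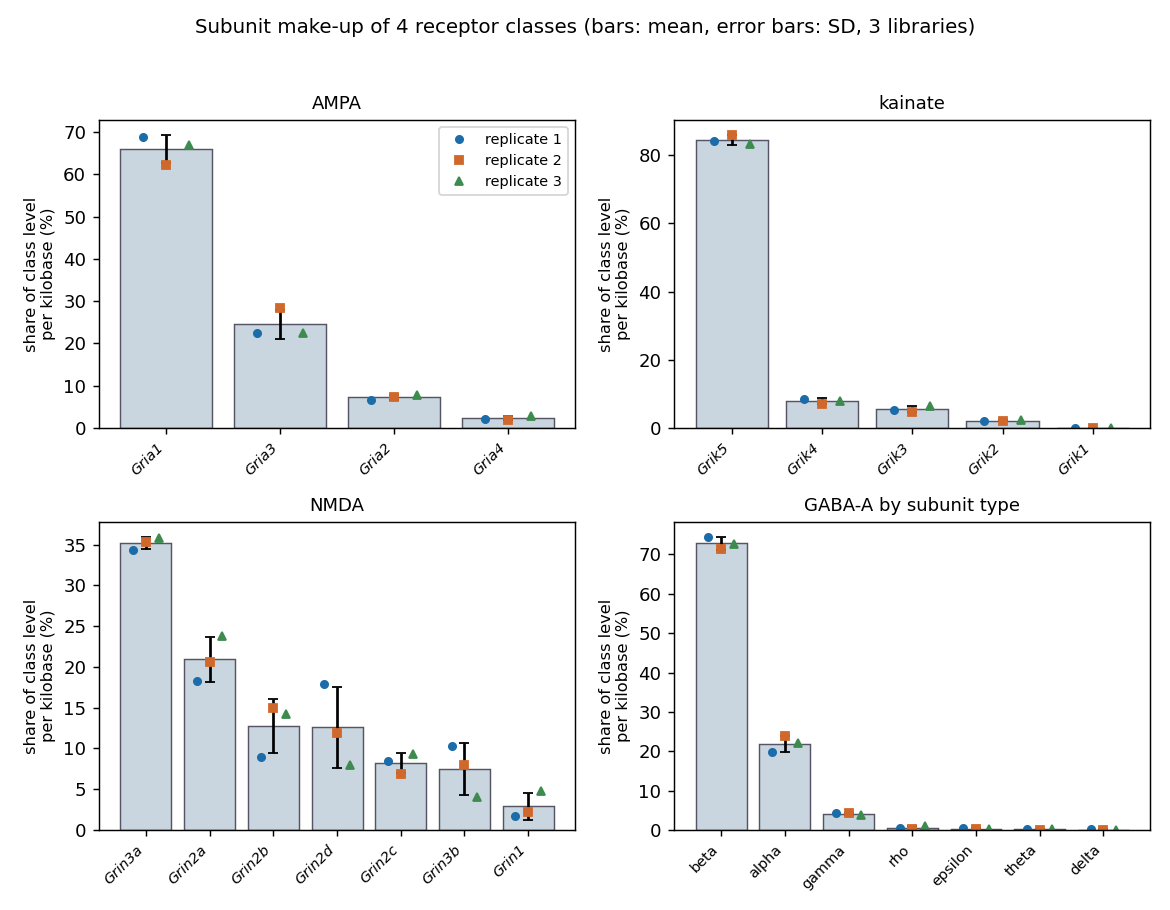
Share of the summed level per kilobase taken by each subunit of the AMPA, kainate and NMDA classes and by each subunit type of the GABA-A class, in percent, with bars for the mean, error bars for the SD and points for the 3 libraries. Gria1 takes 66.0% of the AMPA class and Grik5 84.5% of the kainate class, whereas Grin1 takes 2.92% of the NMDA class.

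AMPA and kainate receptors are trafficked and gated by auxiliary proteins, and 16 of 17 genes of that list had a row. Of the 12 tested against the median gene, 7 were above it and 2 below (list median 0.56, against -2.95 for the receptor genes). Cacng7, a TARP auxiliary subunit of AMPA receptors, was the highest of the list per kilobase, with normalized counts of 1775, 1699 and 1724. Cpt1c, which regulates the export of GluA1 from the endoplasmic reticulum, had 1764, 1593 and 1364. Neto2, an auxiliary subunit of kainate receptors, had 973, 1735 and 1454. The other end of the list was Cacng2 (stargazin, the TARP of cerebellar granule cells), with 0.813, 0.472 and 0, which is at most 1 read in a library. Of the postsynaptic scaffolds 15 of 16 had a row, and of the 14 tested 4 were above the median gene and 10 below. Gipc1 (981 ± 72.1 normalized counts) and Homer3 (409 ± 48.5) were among the highest per kilobase, and Shank1, a master scaffold of dendritic spines, averaged 5.01 ± 2.28 (SD, n = 3).

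The kainate class was dominated by Grik5, which encodes GluK5, a high-affinity subunit that forms functional channels only with a GluK1 to GluK3 partner. Grik5 had normalized counts of 1359, 1260 and 1028. Grik4 (GluK4, the other high-affinity subunit) had 160, 120 and 114. For both of these genes replicate 1 was highest and replicate 3 lowest. Of the partner genes, Grik3 (GluK3) had 145, 120 and 139. Grik2 (GluK2) had 80.5, 81.6 and 71.7, nearly level across the libraries. Grik1 (GluK1) had 6 reads in all, or 2.44, 0.943 and 1.196. Per kilobase Grik5 took 84.5 ± 1.40% of the class, Grik4 7.89 ± 0.762%, Grik3 5.45 ± 0.912% and Grik2 2.13 ± 0.164% (SD, n = 3), with no overlap of the levels between neighbours in this order.

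Grik5 was higher than Grik2 in each of the 3 libraries, by 39.3-fold per kilobase. The log2 difference was 5.30 ± 0.093 (SE; limma adjusted p = 8.76e-15), beside 94% of genes that differed from Grik2. With the variance of this difference alone the adjusted p was 0.00082. Without division by length the log2 difference was 3.94, and with the longest transcript 5.15.

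In the NMDA class the gene for the obligatory subunit was among the lowest. Grin1 (GluN1) had normalized counts of 3.25, 3.77 and 8.37, which are 4, 8 and 7 reads. Its share of the NMDA reads was 1.44% (95% Wilson interval 0.561 to 3.64), 1.58% (0.803 to 3.09) and 3.38% (1.65 to 6.81). Per kilobase it averaged 0.529, the lowest of the 7 genes of the class. A further gene, Grin1os, covers 13.5% of the Grin1 exons on the opposite strand, and because the strand setting of the counting is not given, the Grin1 count is uncertain.

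Of the other NMDA genes Grin3a was the highest. Grin3a (GluN3A, a subunit of the young brain that lowers calcium entry) had 80.5, 77.4 and 78.9 and took 35.2 ± 0.766% of the class per kilobase. Grin2b (GluN2B) had 42.3, 66.5 and 63.4, and Grin2a (GluN2A) 62.6, 66.0 and 76.5. Replicate 1 was the lowest library for both of these GluN2 genes, and their count ranges overlapped. Grin2d (GluN2D) had 22.8, 14.2 and 9.57. Grin2c (GluN2C, known from cerebellar granule cells and from astrocytes) had 8.13, 6.13 and 8.37, and Grin3b (GluN3B) 6.51, 4.72 and 2.39, overlapping the values of Grin1. Grin2a shares 11.6% of its 50-base stretches with other sequence of the transcriptome, and Tmem259 covers 32.1% of the Grin3b exons on the opposite strand.

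Grin2b, the fetal GluN2 subunit, was lower per kilobase than Grin2a, the subunit of the mature brain, in each of the 3 libraries. The log2 difference was -0.74 ± 0.198 (SE; limma adjusted p = 0.000196), beside 95.7% of genes that differed from Grin2a. With the variance of this difference alone the adjusted p was 0.0491. Without division by length the log2 difference was -0.27 (limma adjusted p = 0.178), so the call depends on the exon lengths. Grin2c was 1.51 ± 0.55 (SD, n = 3) above Grin1 on the log2 scale per kilobase, higher in each of the 3 libraries. Without division by length the difference was 0.56, and with the longest transcript 0.37. Both genes lay under a mean of 10, so the pair was tested only in the alternative that admits genes with a mean of 1 or more (limma adjusted p = 0.00404). The share of all genes called against Grin1 was not counted. Enzymes that make or break down the co-agonists D-serine and glycine were abundant by comparison. Of the 5 of 6 with a row, 4 were above the median gene and 1 below (list median 1.48). Phgdh, the entry enzyme of serine synthesis, had 1701 ± 166 normalized counts, Gldc, which degrades glycine, 1835 ± 172, and Shmt2, which converts serine to glycine, 625 ± 99.4. Shmt1, its cytosolic form, was the lowest, at 114 ± 17.9 (SD, n = 3).

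**Figure D2:**
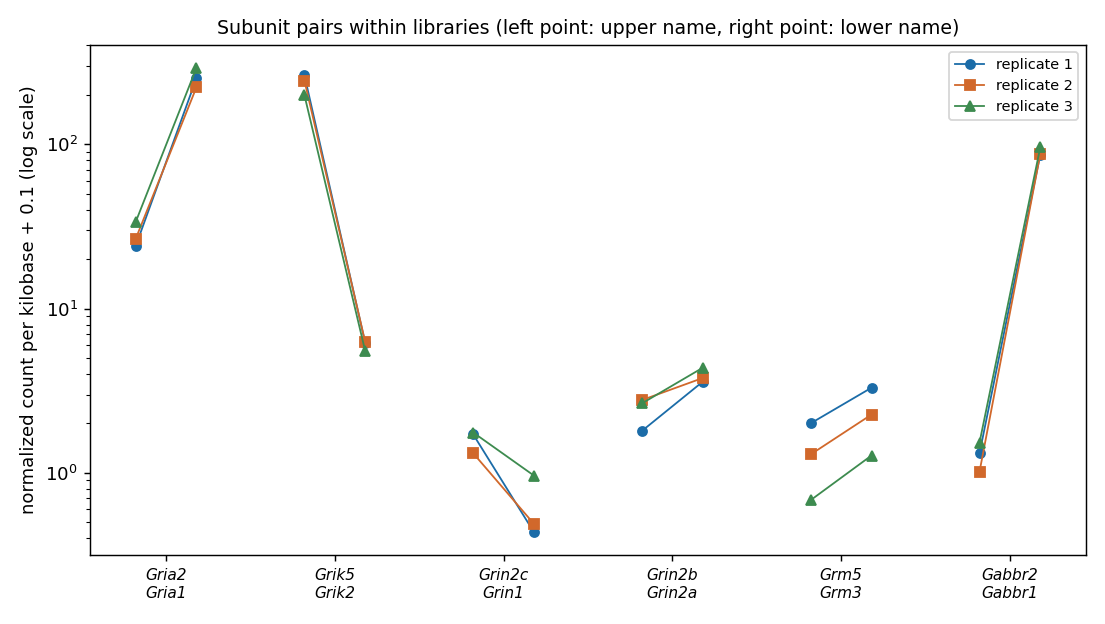
Normalized count per kilobase plus 0.1 (log axis) of both genes of each subunit pair, joined within a library, with the upper name at the left and the lower name at the right. Grik5 lies 39.3-fold above Grik2, Gria2 9.15-fold below Gria1 and Gabbr2 68.1-fold below Gabbr1, and lines of the 3 libraries slope the same way in every pair.

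The delta receptors, which bind glycine and D-serine and link synapses through cerebellin, were represented by Grid1 (GluD1). Grid1 had normalized counts of 107, 116 and 100, with replicate 2 the highest and replicate 3 the lowest.

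Metabotropic glutamate receptors gave the lowest summed level of the classes, 67.5 ± 2.11 normalized counts over 7 genes (SD, n = 3). Grm8 (mGluR8, coupled to Gi) had 28.5, 35.4 and 45.4, and was the highest of them. Grm5 (mGluR5, coupled to Gq and the receptor best known from young astrocytes) had 19.5, 12.3 and 5.98. Grm3 (mGluR3, coupled to Gi) had 9.76, 6.60 and 3.59. Both were highest in replicate 1 and lowest in replicate 3, the reverse of Grm8. Grm3 had only 12, 14 and 3 reads, too few for the chi-square test of reads between libraries. Grm8 was not called by that test (adjusted p = 0.197). The microglial marker sum (27340, 21610 and 18680) and the excitatory neuron sum (903, 780 and 759) had the library order of Grm5 and Grm3. The part of these cell types in the values was not tested. Grm2, Grm4 and Grm7 had means under 5, with 0 reads of Grm2 in replicate 1 and of Grm4 in replicate 3. Per kilobase Grm8 took 41.5 ± 12.3% of the class and Grm3 23.8 ± 9.47% (SD, n = 3), but neighbouring levels overlapped all along this order.

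Grm5 minus Grm3 was -0.97 ± 0.16 (SD, n = 3) on the log2 scale per kilobase, lower in each of the 3 libraries. Grm3 lay under a mean of 10, and the pair did not pass the test in the alternative that admits means of 1 or more (limma adjusted p = 0.0577). The direction depends on length: without dividing by it, Grm5 was 0.78 above Grm3. The partners of these receptors were mixed. The list holds 14 genes of G proteins, phospholipases, calcium release and the G protein regulator Rgs4. Of the 13 tested, 6 were above the median gene and 7 below, beside 45.7% and 45.1% of all genes. Gnai2, an alpha subunit of Gi, had 15510 ± 1052 normalized counts, Gnai3 1508 ± 235 and Gna11, an alpha subunit of the Gq family, 1576 ± 26.7 (SD, n = 3). Plcb2, a phospholipase C of blood cells, was the lowest, at 2.44, 3.30 and 7.17.

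In the GABA-A class beta subunits predominated. Per kilobase the 3 beta genes took 72.8 ± 1.59% of the class, the 5 alpha genes 21.9 ± 2.10% and the 2 gamma genes with a row 4.18 ± 0.279% (SD, n = 3). Gabrb1 (beta1) had normalized counts of 843, 962 and 868. Replicate 2 was the highest of the 3. Gabrb2 (beta2, the main beta subunit of the adult brain) had 19.5, 24.5 and 5.98, and was low in every library beside Gabrb1.

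Among the alpha genes Gabra4 (alpha4, found mostly in extrasynaptic receptors) led with 206, 298 and 269. Gabra5 (alpha5, also extrasynaptic) had 27.7, 22.2 and 37.1. Gabra2 (alpha2, abundant in the young forebrain) had 13.01, 27.8 and 13.2, with replicate 2 apart. Gabra3 (alpha3) had 1.63, 4.25 and 0.

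Gabrg3 (gamma3) had 75.6, 84.0 and 76.5, and Gabrg1 (gamma1, known from glia) 30.1, 30.2 and 31.1, the most even values of any member between the libraries. The delta gene Gabrd, the epsilon gene Gabre, the theta gene Gabrq and the rho genes Gabrr1 and Gabrr2 each had 4 to 14 reads in all, near the level that a count of 0 allows.

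GABA-A receptor genes lie in clusters, here taken as neighbours less than 500 kb apart. On chromosome 5 (chr5:70751047-72149037, GRCm38) Gabrg1 and Gabra2 had 3.87 and 2.36 per kilobase, and Gabra4 and Gabrb1, next to them, 42.3 and 64.4. On chromosome 7 Gabrg3 and Gabra5 had 6.60 and 9.74, and in the clusters on chromosomes X and 4 no gene averaged more than the 0.762 of Gabre. High and low members thus occurred together in the chromosome 5 cluster, as the plot of the clusters shows. Gabra4 and Gabrb1 run in opposite directions, their 5′ ends overlap, and their RefSeq start sites are 387 bases apart. In the GENCODE annotation the overlap of exons is 0.756% of the Gabra4 exons and 0.332% of the Gabrb1 exons. Both genes were highest in replicate 2 and lowest in replicate 1.

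**Figure D3:**
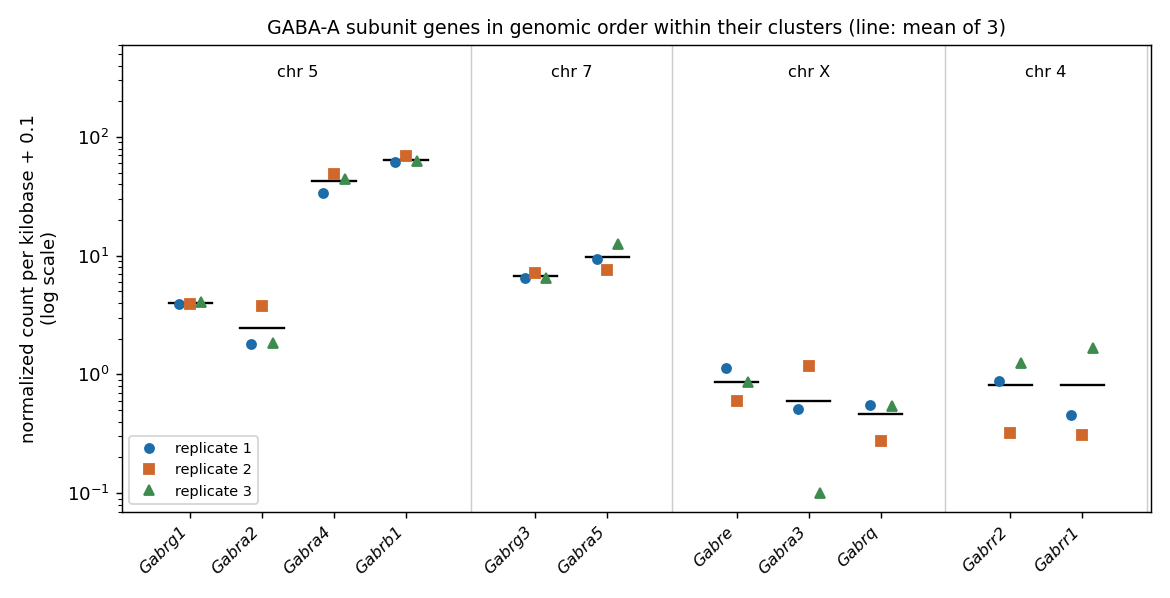
Normalized count per kilobase plus 0.1 (log axis) of GABA-A subunit genes in genomic order within the clusters of chromosomes 5, 7, X and 4, with points for the 3 libraries and a line for the mean. Gabra4 and Gabrb1 (42.3 and 64.4) stand above the other members of their cluster, and the genes of chromosomes X and 4 lie lowest.

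Of the 17 genes for anchoring and transport of GABA receptors, 15 were tested, of which 9 were above the median gene and 4 below (list median 0.30). The highest per kilobase were Gabarap and Gabarapl1, which take part in GABA-A receptor transport and in autophagy, at 3951 ± 558 and 2716 ± 213 normalized counts (SD, n = 3). Nlgn2, the adhesion molecule of inhibitory synapses, had 1012 ± 68.9. Kctd8, an auxiliary subunit of the GABA-B receptor, was the lowest, at 1.63, 3.30 and 1.196.

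The GABA-B pair was the most uneven of those examined. Gabbr2, which couples to the G protein and carries GABBR1 to the cell surface, had normalized counts of 8.13, 6.13 and 9.57, which are 10, 13 and 8 reads. Gabbr1, which binds GABA, had 673, 676 and 745. The share of Gabbr2 in the reads of the pair was 1.19% (95% Wilson interval 0.650 to 2.19), 0.898% (0.526 to 1.53) and 1.27% (0.644 to 2.48). Per kilobase the log2 difference of Gabbr2 from Gabbr1 was -6.09 ± 0.23 (SD, n = 3), 68.1-fold lower, in each of the 3 libraries. Gabbr2 lay under a mean of 10, so the pair was tested only in the alternative that admits genes with a mean of 1 or more (limma adjusted p = 2.34e-21). That p draws on the variance of all genes, and the share of all genes called against Gabbr1 was not counted. The promoter of Gabbr2, printed above, had more CpGs (46) than that of Gabbr1 (18).

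Promoters of 28 of the 42 genes could be matched. They held a median of 25 CpGs in the 7 matched genes with a mean of 100 or more, 13 in the 9 between 10 and 100, and 18.5 in the 12 under 10. All 32851 promoter windows of the table had a median of 7. A GC box occurred in 18 of the 28, against 35.7% of all windows, and a TATA box (TATAAA on either strand) in 3 of the 28, against 13.6%. RE1 elements, through which the repressor REST silences neuronal genes in other cell types, were searched by both of their blocks on either strand. The left block TTCAGCACC occurred in the window of Grm2 and in 0.371% of all windows. The right block GGACAGCGC occurred in the window of Gria2 and in 0.405%. Whether any factor is bound at these letters was not measured.

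The libraries did not agree within read sampling for many of these genes. A chi-square test of the reads over the 3 libraries called 13 of the 24 tested, and it called 55.4% of all 13941 genes, so the share among the receptor genes was near that background. All 4 AMPA genes were called, as were Grik4, Grik5, Grin2b, Grm5 and 5 GABA-A genes, among them Gabra2, Gabra4, Gabrb1 and Gabrb2. The lowest p-values, which also follow read depth, were those of Gria1, with 1.31-fold between replicates 3 and 2 (adjusted p = 1.92e-16), and Grik5, with 1.32-fold between replicates 1 and 3 (adjusted p = 5.45e-10). Gabrg1 (adjusted p = 0.991) and Grin3a (adjusted p = 0.933) were the most even. The count was 8 without replicate 2 or without replicate 3 and 6 without replicate 1. Fold ranges over the 3 libraries stayed under 2 for every called gene except Gabra2 (2.14), Gabrb2 (4.10) and Grm5 (3.26), which had 55 to 86 reads in all.

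The genes that differed did not follow a single library order. Gria1 and Gria4 were highest in replicate 3 and lowest in replicate 2, the order of the summed pan-neuronal markers (3863, 3584 and 3970). Within that sum Stmn2 (701, 527 and 780) and Syt1 (222, 35.9 and 244) had this order. Map2, most of the sum, did not (2501, 2599 and 2594), nor did Tubb3 (190, 162 and 118). Grik4, Grik5 and Grm5 were highest in replicate 1 and lowest in replicate 3, the order of the microglial sum and of the excitatory neuron sum (903, 780 and 759). Gria3, Gabra4, Gabrb1, Gabra2 and Grin2b were highest in replicate 2 and lowest in replicate 1, the order of the neural progenitor sum (36589, 39060 and 38717). Gabrb2 was highest in replicate 2 and lowest in replicate 3, the order of the astrocyte sum (101682, 109884 and 88464) and of the oligodendrocyte precursor and fibroblast sums. Gria2 was highest in replicate 3 and lowest in replicate 1, the order of none of the marker sums. There are few possible orders of 3 libraries, and the part of these cell types in the receptor values was not tested.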

How the data were processed

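The authors deposited a normalized read count (signal) per gene in each of 3 libraries, scaled with DESeq2 on build mm10, per the submitters' processing notes. Not given in the sources used here are aligner, counting tool, strand setting, annotation and gene filter. The kit is stranded, per the labels' protocols. Values were whole multiples of 1 read, and whole reads were recovered for 100% of values (tolerance 0.05 reads). Exon lengths, positions and overlaps came from GENCODE vM21 on GRCm38, which held 19372 genes (99.5%). Levels are log2(normalized count + 1) minus log2 kilobases of merged exons, so the folds of low genes depend on the added 1.

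Pairs of subunits, and each gene against its library's median gene, were tested on within-library differences by limma (intercept only, trended prior), over genes with a mean of 10 or more, with two-sided Benjamini-Hochberg adjusted p under 0.05. All differences in a pair's test share the values of its second gene. Pairs with a gene under a mean of 10 are given as values, and were tested only in the alternative with a mean of 1 or more. Reads were compared between libraries by chi-square for genes with at least 30 reads, and edgeR ran the quasi-likelihood alternative. Members are named, with the 3 highest genes of each pathway list per kilobase and the lowest, and some genes that this rule selects are not reported here. The scripts were tested on simulated data. Software was R 4.3.3 (limma 3.58.1, edgeR 4.0.16) and Python 3.11.15 (SciPy 1.17.1, pandas 2.3.3, numpy 2.4.6, matplotlib 3.10.9). Members, pairs and lists were chosen with earlier results of these data known. Sample descriptions carry a name for day 0 where titles and design give day 1, and the titles were followed.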

Additional observations from a re-analysis of the deposited data

How the results depend on the processing

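Of 117 values over 15 results, 93 counted as unchanged. They kept direction and call, moved by less than the replicate SD or, for gene counts, stayed within a fold limit of the main count. That limit kept, for example, 7 members above the median gene without division by length, against 5. Without division by length, Grm5 minus Grm3 turned to 0.78, Grin2b minus Grin2a lost its call at -0.27, and Grin2c minus Grin1 was 0.56. With the longest transcript, Grin2c minus Grin1 was 0.37, Grm5 minus Grm3 -0.62 and Gabbr2 minus Gabbr1 -6.44. With a pseudocount of 5, Grm5 minus Grm3 was -1.20 and Gabbr2 minus Gabbr1 -5.55. Leading shares without division by length and with the longest transcript were 52.0% and 54.6% for Gria1, 77.8% and 86.6% for Grik5, 33.3% and 42.9% for Grin3a, and 54.1% and 55.3% for Grm8. Gabbr1 took 98.98% with the longest transcript. With a mean of 1 or more, 41 members were detected and 35 lay below the median gene. With a mean of 100 or more, 11 were detected and 8 differed between libraries, and leaving out a replicate gave 6 to 8. The variance of each gene's own difference alone was an alternative chosen after seeing the data. Exon length is the choice that moved most values, and the expressed isoforms were not measured. Genes were compared within libraries, but no pairing of samples between groups was possible because there is a single group. Depth limits the 18 genes under a mean of 10, and only counting error is covered by their intervals.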
